A study of Homo sapiens with 6 samples.

Results

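The neuronal cytoskeleton genes described here are 10 transcripts listed by symbol: NEFL, NEFM, NEFH, INA, TUBB3, MAP2, MAPT, STMN2, DCX and GAP43. They were found by their Ensembl identifiers among the 60664 genes of the count tables, and all 10 were present as rows. Of these, 8 passed the low-count filter and entered the test with 14673 genes in total. STMN2 and GAP43 had 0 counts in every library and could not be tested. The cells were D283 Med, an established human Group 3 medulloblastoma line in which MYC is amplified. Cells of all 6 libraries had received an LNA GapmeR, a modified antisense DNA that has its target transcript cut by RNase H. In the 3 control libraries the GapmeR was scrambled (SCR), and in the 3 knockdown libraries (KD) it targeted the long non-coding RNA lncMB3. Nothing in the labels says whether replicates were separate cultures. The p-values therefore rest on library-to-library spread that may be technical only. One cell line and 1 targeting condition were compared, and loss of lncMB3 cannot be told apart from other effects of its GapmeR.

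Neurofilaments are the intermediate filaments of axons. They are built as mixed polymers in which the light chain NEFL forms the core with the medium chain NEFM, the heavy chain NEFH and alpha-internexin (INA), and the long tails of NEFM and NEFH project from the filament. Microtubules of neurons carry the beta-tubulin isotype TUBB3 and are bound by MAP2 in dendrites, by tau (MAPT) in axons and by doublecortin (DCX) in young migrating neurons, while STMN2 destabilises them in growth cones and GAP43 lies under the growth cone membrane. Neuronal markers of this kind are used in medulloblastoma to describe how far tumour cells have gone along the neuronal lineage.

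Total counts ran from 7765826 in knockdown library 1 to 20035834 in control 2, so low counts were least precise in knockdown library 1. OTX2 and CRX, transcription factors of Group 3 tumours, had mean levels of 885 ± 51.5 and 51.0 ± 10.3 CPM with the scrambled GapmeR (SD, n = 3). After knockdown these were 729 ± 11.2 and 37.6 ± 0.671 CPM. EOMES, a T-box factor, had at most 4 counts in a library. CPM is the count divided by the scaled library total and put on a common scale for all libraries. By edgeR's quasi-likelihood test OTX2 fell 1.21-fold (adjusted p = 0.0202) and CRX 1.36-fold (adjusted p = 0.0132). MYC did not pass, at 1177 ± 90.5 CPM with the scrambled GapmeR and 1203 ± 74.8 CPM after knockdown (log2 change 0.03, adjusted p = 0.826). The OTX2 call was lost without control 2, control 3, knockdown library 1 or knockdown library 3 (adjusted p = 0.107, 0.0689, 0.0762 and 0.0620), and that of CRX without control 3, at -0.28 in place of -0.44 (adjusted p = 0.0743). Many markers of other cells were at or near 0, but some were as abundant as a member such as INA. Glial markers summed to 34.2 to 37.7 CPM in controls and 37.6 to 43.8 CPM in the knockdown over 9 genes, with MBP at 0 and GFAP, counted here with the filament proteins, at 0 to 3 counts. The 9 mesenchymal, endothelial, immune and epithelial markers summed to 70.4 to 85.8 and 48.1 to 56.9 CPM, mostly KRT8, with COL3A1 and CDH5 at 0 and PTPRC at 0 or 1 count. Of 6 progenitor markers, which summed to 72.7 to 89 and 65.1 to 74.7 CPM, SOX2, ATOH1, HES5 and FABP7 were at 0 and PROM1 accounted for nearly the whole sum. KRT8, a keratin, fell 1.6-fold from 56.0 ± 7.28 to 34.6 ± 4.38 CPM (adjusted p = 0.000733), a call kept under each alternative run. COL1A1 and PDGFRA fell 1.28-fold and 1.77-fold (adjusted p = 0.0315 and 0.0203) and SLC1A3, a glial glutamate transporter, rose 1.21-fold (adjusted p = 0.0404). Each of these 3 calls was lost by DESeq2 (adjusted p = 0.0687, 0.105 and 0.0738) and without control 2 (0.0950, 0.0657 and 0.113) or control 3 (0.128, 0.0517 and 0.0699) or knockdown library 3 (0.139, 0.0577 and 0.213). That of PDGFRA was also lost without knockdown library 2 (0.0614), and that of SLC1A3 without control 1 (0.0883), with upper-quartile scaling (0.102) and with no low-count filter (0.0700). PROM1 did not pass (log2 change -0.22, adjusted p = 0.103). The part of these marker changes in the differences described here was not tested. In bulk RNA, fewer cells of a kind and less RNA per cell cannot be told apart.

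Among the members, the neurofilament genes were read at higher levels than the tested microtubule genes, and STMN2 and GAP43 were at 0. Levels between genes were compared as CPM per kilobase of annotated exon. In controls NEFH was highest at 157 ± 20.5 CPM per kilobase (SD, n = 3), followed by NEFM at 43.1 ± 0.376, NEFL at 19.1 ± 2.0 and INA at 5.72 ± 0.615. None of these neighbours overlapped between their 3 control libraries. NEFH lay above 98.9% of all tested genes over the 6 libraries, NEFM above 92.9%, NEFL above 81.1% and INA above 59.4%. The tested microtubule genes among the members came far below. TUBB3 was at 0.523 ± 0.136 CPM per kilobase in controls, MAPT at 0.306 ± 0.0108, DCX at 0.159 ± 0.0414 and MAP2 at 0.103 ± 0.0201. DCX and MAP2 overlapped between libraries, and the other neighbours in this order did not. TUBB3 lay above 12.2% of tested genes, MAPT above 5.19%, DCX above 1.94% and MAP2 above 1.91%. In knockdown libraries the order was the same except that MAP2, at 0.142 ± 0.00971, stood above DCX, at 0.0868 ± 0.0419, with overlap between libraries. Lengths are those of all annotated exons together. With the length of the longest transcript the control order was the same, with TUBB3 at 1.17 and MAPT at 0.670 CPM per kilobase.

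**Figure D1:**
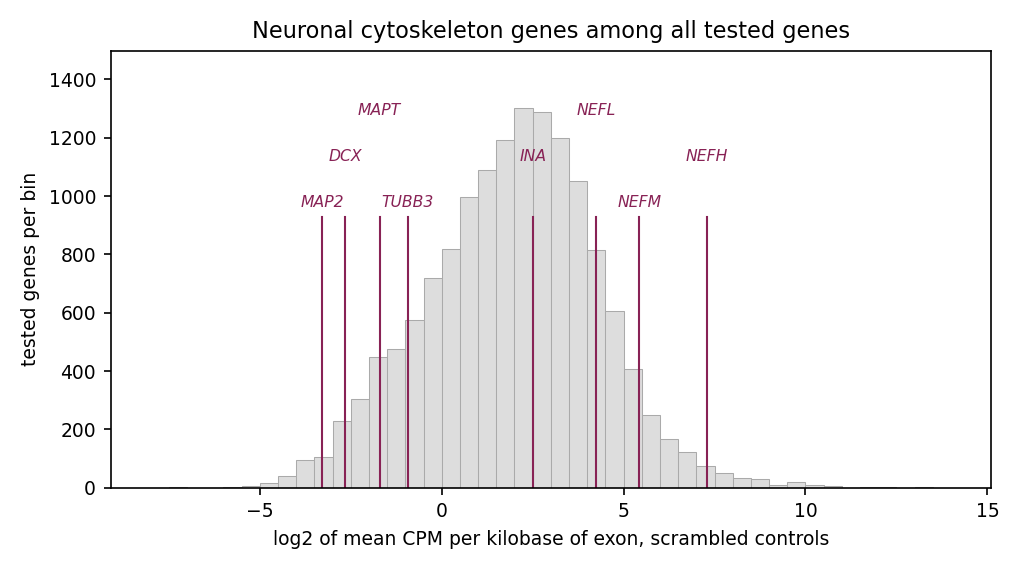
Histogram of the log2 mean CPM per kilobase of exon in the 3 scrambled controls for all tested genes, with a vertical line at each of the 8 tested neuronal cytoskeleton genes. NEFH, NEFM and NEFL lie in the upper part of the distribution, INA near its middle, and TUBB3, MAPT, DCX and MAP2 in its lower tail.

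STMN2 and GAP43 were listed at 0 counts in all 6 libraries, among 3675 of 19890 protein-coding genes for which this was so. A count of 0 allows up to 3 counts in a library, which is 0.147 to 0.390 CPM depending on depth, and this limit covers counting error only. Neither gene can therefore be compared between groups. GAP43 spans chromosome 3, 115623324 to 115721490 (GENCODE release 29, GRCh38). Some of their relatives in function were present and others were not. STMN1, the ubiquitous stathmin, was at 742 ± 35.1 CPM in controls, and STMN3 at 57.1 ± 2.54 CPM, while STMN4 was also at 0. BASP1 and MARCKS, growth cone proteins that like GAP43 bind the inner membrane, were at 59.3 ± 8.32 and 294 ± 16.3 CPM in controls.

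Promoter letters of 5 of the 10 genes are held by RefSeq (GRCh38.p14): INA, TUBB3, MAP2, DCX and GAP43. There was no entry for NEFL, NEFM, NEFH, MAPT or STMN2. The stretches below are shown because they belong to INA, which was read at over 17 CPM in every library, and to TUBB3 and MAP2, which were read at under 3 CPM. They lie within the 250 bases before a RefSeq start and were kept to the part free of annotated exons, 5′ to 3′ on the plus strand. Capitals mark matches to the motifs searched on both strands, which were the GC box GGGCGG, the CCAAT box, the TATA box TATAAA, the neurogenic E-box CAGATG and the left part of the REST element, TTCAGCACC.
INA, chr10:103276888-103277137: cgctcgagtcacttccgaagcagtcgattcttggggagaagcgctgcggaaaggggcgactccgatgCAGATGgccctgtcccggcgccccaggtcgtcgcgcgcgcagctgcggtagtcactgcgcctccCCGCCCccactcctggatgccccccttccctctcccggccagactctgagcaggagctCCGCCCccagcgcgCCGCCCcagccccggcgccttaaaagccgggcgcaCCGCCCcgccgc
TUBB3, chr16:89923092-89923278: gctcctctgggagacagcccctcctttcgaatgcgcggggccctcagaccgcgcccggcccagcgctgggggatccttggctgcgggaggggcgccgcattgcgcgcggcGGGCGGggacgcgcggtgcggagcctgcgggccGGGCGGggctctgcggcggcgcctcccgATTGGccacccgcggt
MAP2, chr2:209661246-209661464: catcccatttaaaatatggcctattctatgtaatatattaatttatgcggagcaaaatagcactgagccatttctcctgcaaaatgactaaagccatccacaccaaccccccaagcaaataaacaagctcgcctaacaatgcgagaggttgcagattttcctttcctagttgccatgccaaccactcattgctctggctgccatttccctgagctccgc

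Over the whole 250 bases, the INA window held 30 CpG pairs and this TUBB3 window 39, more than 87.6% and 97.3% of the 35116 promoter windows of that length. The MAP2 window shown held 4, more than 29.3% of them. Other MAP2 windows held 6 and 8 (more than 38.1% and 43.7%), and another TUBB3 window held 9 (more than 45.9%). Contrasts between genes thus depend on the window taken. All MAP2 windows lie inside the annotated gene, far past its first base at 209424058, so none covers that start. The TUBB3 windows also lie inside their annotated gene, which begins at 89921392. INA had 4 GC boxes and TUBB3 had 3, of which the last lies outside the stretch shown, and the other 8 windows of the 5 genes had none. Of all promoter windows 42.6% held a GC box. CAGATG occurred in the INA window and in another MAP2 window, against 12.2% of all windows. TTCAGCACC occurred in none of the 10 windows and in 0.288% of all. A CpG-rich window with GC boxes was thus found both at INA, read at 17.3 to 22.8 CPM, and at TUBB3, read at 0.911 to 2.93 CPM.

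The comparison of the groups asks which of these transcripts differ when the GapmeR is directed at lncMB3. Neurofilament transcripts moved in opposite directions: NEFL and NEFM fell, NEFH rose and INA did not pass the test. Tau fell as well, and the other tested microtubule genes among the members did not pass. In all, 1 of 8 tested genes rose and 3 fell by edgeR's quasi-likelihood test (adjusted p under 0.05 over all tested genes). Of all tested genes 31.7% passed, 15.9% higher and 15.9% lower, so a call is common in this comparison. The median log2 change of the 8 was -0.26, against 0.00028 over all tested genes. The groups did not overlap for 5 of the 8, against 46.0% of all tested genes.

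**Figure D2:**
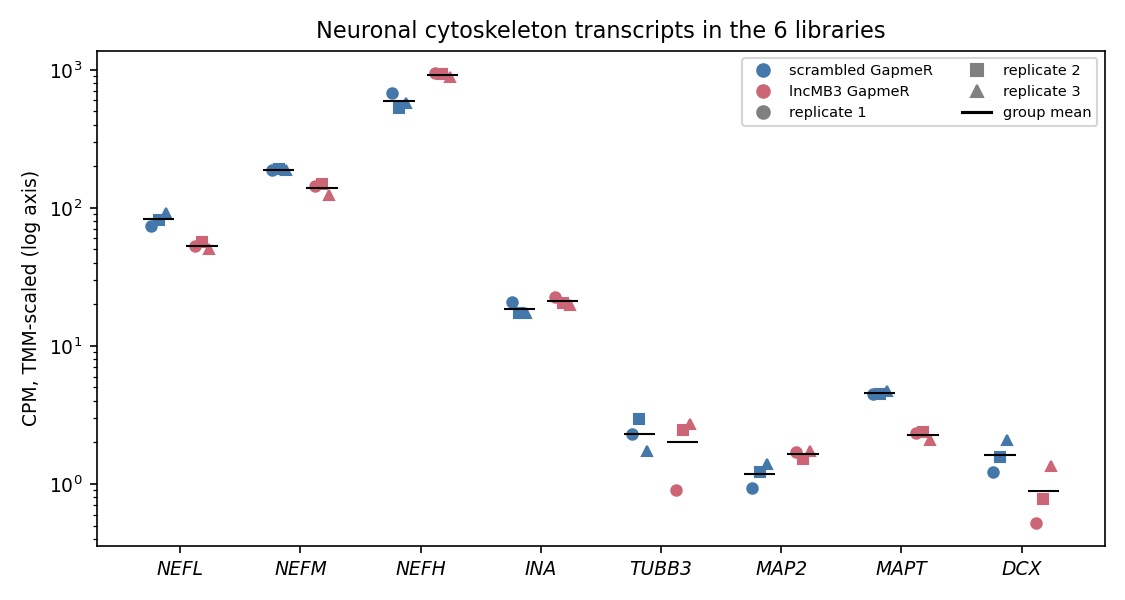
CPM of the 8 tested neuronal cytoskeleton genes in each library, on a log axis, with scrambled controls in blue, knockdown libraries in red, a symbol shape per replicate and a black line at each group mean. The groups separate for NEFL, NEFM, NEFH, MAP2 and MAPT and overlap for INA, TUBB3 and DCX.

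NEFH, the heavy chain, whose tail is the most heavily phosphorylated part of the filament, lies on chromosome 22, 29480230 to 29491390. It was read at 679, 527 and 576 CPM in the scrambled libraries and at 944, 927 and 889.8 CPM after knockdown, each in the order of replicates 1 to 3, as in all values by library here. Every knockdown library was above every control, and control 1 was the control nearest to them. NEFH rose 1.55-fold, from 594 ± 77.7 to 920.2 ± 27.7 CPM (log2 change 0.63 ± 0.10 SE, adjusted p = 0.000478). Without control 1 the log2 change was 0.74, and without control 2 it was 0.55.

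NEFL, the light chain, lies on chromosome 8, 24950955 to 24957110. It was read at 74.4, 81.5 and 91.6 CPM with the scrambled GapmeR and at 52.9, 56.9 and 49.9 CPM after knockdown. The groups did not overlap, and control 1 was again the nearest. NEFL fell 1.55-fold, from 82.5 ± 8.64 to 53.3 ± 3.50 CPM (log2 change -0.63 ± 0.10 SE, adjusted p = 0.000408).

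NEFM, the medium chain, lies on the same chromosome, 24913012 to 24919098, with 31856 bases between it and NEFL and on the opposite strand. STMN2 lies farther along this chromosome, 79610814 to 79666175. NEFM was read at 187, 189.6 and 189.6 CPM with the scrambled GapmeR and at 145, 149.7 and 125 CPM after knockdown. The controls lay close together and all 3 knockdown libraries were below them. NEFM fell 1.35-fold, from 189 ± 1.65 to 139.9 ± 13.2 CPM (log2 change -0.43 ± 0.09 SE, adjusted p = 0.00225). An annotated antisense gene, ENSG00000272163, shares exonic bases with NEFM. Its counts were 4.21% to 5.83% of those of NEFM, and its own log2 change was -0.35 ± 0.16 (adjusted p = 0.106). Whether reads were counted by strand is not known, so those of the pair cannot be told apart. No other gene that overlaps a member had more than 9 counts in a library.

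INA, alpha-internexin, a filament subunit of central neurons, lies on chromosome 10, 103277163 to 103290351. It was read at 20.8, 17.4 and 17.3 CPM with the scrambled GapmeR and at 22.8, 20.6 and 19.9 CPM after knockdown. Control 1 lay among the knockdown libraries and the other controls below them. The log2 change was 0.18 ± 0.11 (SE, adjusted p = 0.231), with a 95% interval of -0.06 to 0.41, which holds no change and excludes a rise as large as the estimate for NEFH.

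The make-up of the neurofilament transcripts therefore differed between the groups. Per kilobase, NEFH made 73.1%, 67.4% and 68.6% of the transcripts of the 4 subunits with the scrambled GapmeR and 82.6%, 82.0% and 83.6% after knockdown. NEFM made 17.3%, 20.9% and 19.5% with the scrambled GapmeR and 11.0%, 11.4% and 10.1% after knockdown. NEFL made 6.99%, 9.10% and 9.53% and then 4.05%, 4.40% and 4.10%, and INA made 2.62%, 2.60% and 2.41% and then 2.33%, 2.13% and 2.18%. The groups did not overlap for any of the 4, with NEFH higher and the other 3 lower in every knockdown library. These shares sum to 100 within a library, so a rise of NEFH lowers the others.

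**Figure D3:**
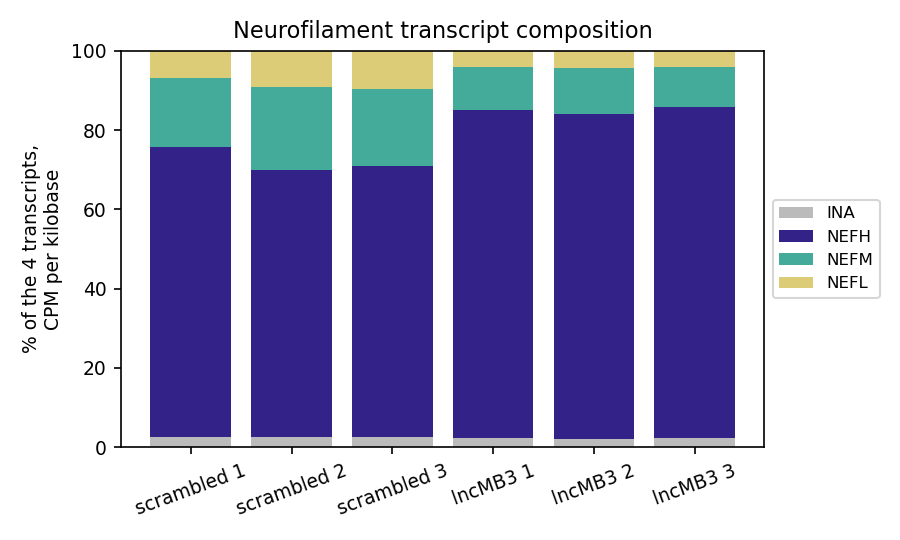
Stacked bars of the share of NEFL, NEFM, NEFH and INA in the summed CPM per kilobase of these 4 transcripts, 1 bar per library. NEFH takes 67.4% to 73.1% in the scrambled controls and 82.0% to 83.6% in the knockdown libraries.

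The ratio of 2 subunits within a library does not depend on scaling between libraries. There were 8.35 ± 1.82 NEFH transcripts per NEFL transcript in the controls and 19.8 ± 1.02 in the knockdown (SD, n = 3 each, per kilobase). The log2 ratio was 3.39, 2.89 and 2.85 in the scrambled libraries and 4.35, 4.22 and 4.35 after knockdown, a difference of 1.27 without overlap. The exact 2-sided permutation test gave p = 0.1, the smallest that 3 against 3 libraries allow, and 0.3 when adjusted over the 3 ratios tested. NEFH was higher and NEFL lower in every knockdown library, so the lack of overlap and this p followed from those values. The test of this ratio therefore adds no separate evidence. For NEFM and NEFL, which both fell, the log2 ratio was 1.31, 1.20 and 1.03 with the scrambled GapmeR and 1.44, 1.38 and 1.31 after knockdown. The difference was 0.19, with control 1 just above knockdown library 3 (exact permutation p = 0.2, adjusted p = 0.3).

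MAPT, the axonal microtubule-binding protein tau (chromosome 17, 45894382 to 46028334), showed the largest fall of the 8. Its counts were 76, 92 and 85 for scrambled and 18, 46 and 40 after knockdown, which is 4.45, 4.5 and 4.75 CPM against 2.34, 2.40 and 2.09 CPM. The libraries of each group lay close together and far from the other group. MAPT fell 2.01-fold, from 4.57 ± 0.161 to 2.28 ± 0.167 CPM (log2 change -1.01 ± 0.19 SE, adjusted p = 0.00156). It was the only one of the 8 called and changed at least 2-fold, as were 3.48% of all tested genes. Under an offset for gene span in the edgeR fit its log2 change was -0.87 (adjusted p = 0.00356), still called but short of 2-fold. Gene counts do not show which tau isoforms were made.

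MAP2, its dendritic relative (chromosome 2, 209424058 to 209734118), had 16, 25 and 25 counts in the scrambled libraries and 13, 29 and 33 after knockdown. Knockdown library 1 was sequenced least, and on the CPM scale its value, 1.69, stood with 1.51 and 1.72 above the controls at 0.937, 1.22 and 1.40. The groups did not overlap, but the change did not pass the test (log2 change 0.46 ± 0.29 SE, adjusted p = 0.239, 95% interval -0.15 to 1.07). An offset for gene span in the edgeR fit put the MAP2 change at 0.73, still not called (adjusted p = 0.0560). Tau and MAP2 thus had estimates of opposite sign, and the interval of MAP2 does not reach that of MAPT, which was -1.42 to -0.60.

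DCX, doublecortin (chromosome X, 111293779 to 111412429), had 21, 32 and 37 counts in the scrambled libraries and 4, 15 and 26 after knockdown, or 1.23, 1.56 and 2.07 against 0.520, 0.782 and 1.36 CPM. Knockdown library 3 lay above control 1. The log2 change was -0.76 ± 0.35 (SE) and did not pass (adjusted p = 0.111). It passed without knockdown library 3, at -1.22 (adjusted p = 0.0475).

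TUBB3, the neuronal beta-tubulin (chromosome 16, 89921392 to 89938761), had 39, 60 and 31 counts in the scrambled libraries and 7, 47 and 52 after knockdown. At 2.28, 2.93 and 1.73 against 0.911, 2.45 and 2.71 CPM, the groups overlapped, with control 2 highest and knockdown library 1 lowest. The log2 change was -0.08 ± 0.31 (SE, adjusted p = 0.864), with a 95% interval of -0.74 to 0.58 that leaves room for a change of the size seen in NEFL. The sign turned without knockdown library 1, at 0.15, and without control 2, at 0.12. A readthrough gene that shares exons with TUBB3 had 0 counts. TUBB3 made 0.0411% ± 0.0116 of beta-tubulin transcripts in the controls and 0.0360% ± 0.0179 in the knockdown (per kilobase, 7 isotypes), while TUBB made 76.5% ± 0.101 and 73.1% ± 1.03 and TUBB4B 15.4% ± 0.403 and 19.3% ± 0.707. The log2 share of TUBB3 differed by -0.31 (exact permutation p = 0.7, adjusted p = 0.7), and by 0.20 without knockdown library 1. Isotypes share near-identical stretches, so their counts are uncertain.

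**Figure D4:**
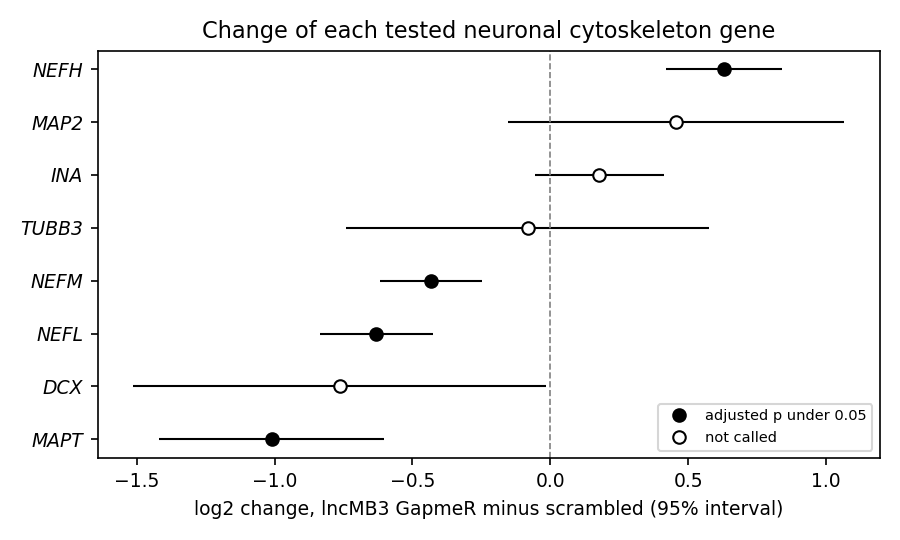
Log2 change (knockdown minus scrambled) of the 8 tested neuronal cytoskeleton genes with 95% intervals from edgeR's quasi-likelihood fit, filled where the adjusted p is under 0.05. NEFH lies to the right of 0 at 0.63, and NEFM, NEFL and MAPT to the left at -0.43, -0.63 and -1.01.

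Genes whose log2 CPM ran most like that of each member over the 6 libraries were sought among 10981 others with a mean of at least 5 CPM. NEFH ran most like PREB (Pearson r = 0.9997) and SRRT (r = 0.999), NEFL like COL2A1 (r = 0.999) and BCL2L1 (r = 0.998), and NEFM like ANXA4 (r = 0.995) and LGMN (r = 0.994). COLEC12 (r = 0.998) was among the genes that ran most like MAPT. An r above 0.95 was reached by 726 genes for NEFH, 717 for NEFL, 531 for MAPT and 274 for NEFM. With 6 libraries in 2 groups, many genes that differ between the groups give such values, so they describe these libraries only. Among the uncalled members such genes were fewer, with 28 for INA, 28 for DCX, 14 for MAP2 and 5 for TUBB3. INA ran most like HNRNPD and NSL1, DCX like RAD52 and ZNF282, MAP2 like ICOSLG and ZNF260, and TUBB3 like CCDC150 and KPTN, with r from 0.966 to 0.997.

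Other genes were read from lists that cover the cytoskeleton and its modifiers, regulators of neuronal transcripts, and neuronal genes outside the cytoskeleton. These 10 lists held 184 genes, of which 160 were tested. Among them 15 rose and 41 fell, 9.38% and 25.6% against 15.9% in each direction over all tested genes, and their median log2 change was -0.07. With an offset for gene span, 23 rose and 32 fell. Without control 2, 6 rose and 26 fell, and over all tested genes 2704 passed in place of 4657 (2891 without control 3). Called in either direction were 31.7% of all tested genes, with all libraries and no offset. The share was 33.3% for other filament proteins, 35.7% for other tubulins, 26.1% for folding factors and 37.5% for microtubule-binding proteins. It was 10% for stathmins, 28.6% for kinases and phosphatases and 33.3% for neuronal genes outside the cytoskeleton. Growth cone proteins were at 42.9%, regulators at 45% and spectrin and ankyrin genes at 60%. The lists are described by counts and medians, with no test of a list as a whole.

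**Figure D5:**
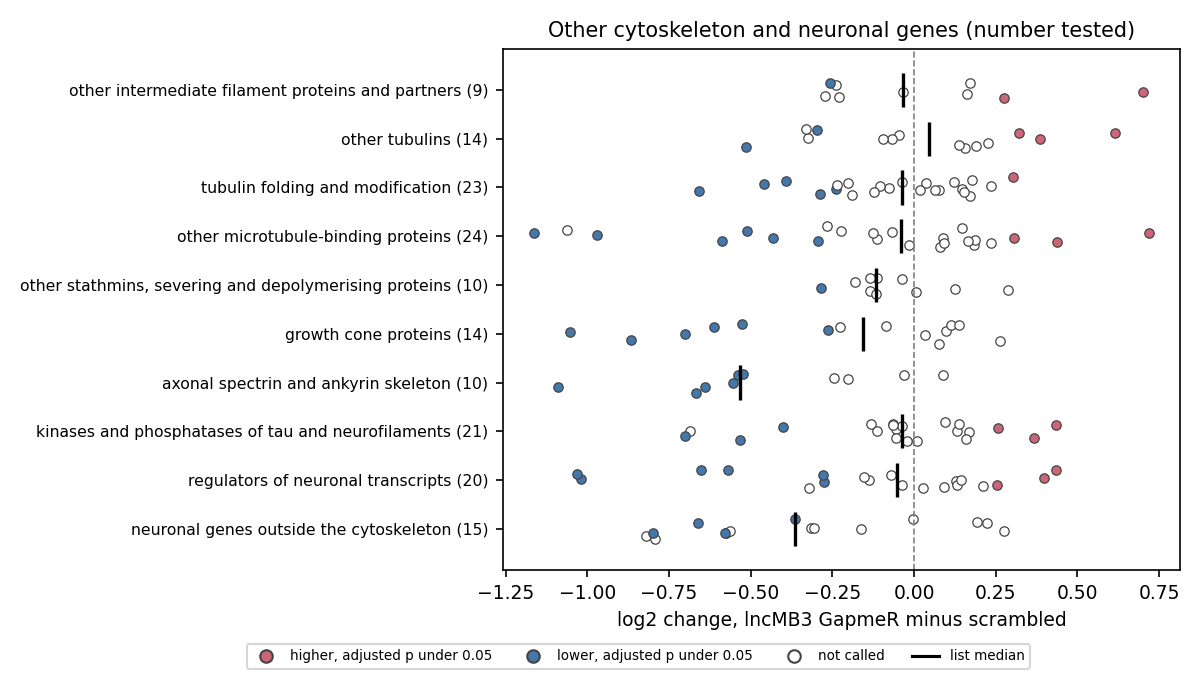
Log2 change (knockdown minus scrambled) of the tested genes of 10 lists of cytoskeletal and neuronal genes, 1 point per gene, filled red or blue where higher or lower at an adjusted p under 0.05, with the list median as a black bar. The spectrin and ankyrin list has the lowest median, -0.53, and the other tubulins the highest, 0.05.

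Other intermediate filament proteins moved both ways, with 2 of 9 tested higher and 1 lower (median -0.03). Synemin (SYNM), a large filament protein that copolymerises with others, rose 1.62-fold from 45.7 ± 2.04 to 74.2 ± 11.9 CPM (edgeR adjusted p = 0.000479). Nestin (NES), the filament protein of neural progenitors, rose 1.21-fold (adjusted p = 0.0183), and vimentin (VIM) fell 1.19-fold from 904 ± 44.1 to 757 ± 51.1 CPM (adjusted p = 0.0370). TRIM2, a ubiquitin ligase of NEFL, was at -0.27 on the log2 scale (adjusted p = 0.0657). It passed without control 1, at -0.35 (adjusted p = 0.0208), and with upper-quartile scaling (adjusted p = 0.0318). The call of NES was lost without control 2, control 3 or knockdown library 1 (adjusted p = 0.109, 0.0567 and 0.0573). That of VIM was lost without control 2, control 3, knockdown library 1 or knockdown library 3 (adjusted p = 0.127, 0.124, 0.0915 and 0.145). The list's 3 calls became 1 without control 2, control 3 or knockdown library 1, and 6 without control 1, and 5 with upper-quartile scaling.

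Of 14 other tubulins tested 3 rose and 2 fell (median 0.05). TUBB2B, an isotype of developing neurons, fell 1.43-fold from 89.7 ± 10.9 to 62.8 ± 6.33 CPM (adjusted p = 0.00248). TUBB4B, a ubiquitous isotype, rose 1.25-fold from 415 ± 20.2 to 519 ± 37.8 CPM (adjusted p = 0.0117), TUBA1C rose 1.31-fold (adjusted p = 0.0116) and TUBD1, a delta-tubulin of centrioles, 1.53-fold (adjusted p = 0.00906). TUBB, the most abundant of the beta-tubulins, had a log2 change of -0.07 (adjusted p = 0.581). Without control 2 TUBB2B was the only call, and TUBB4B, TUBA1C and TUBD1 had an adjusted p of 0.0759, 0.0707 and 0.0553. Without control 3 that of TUBA1C was 0.0560 and 3 tubulins were called.

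Among tubulin folding and modifying factors 1 of 23 rose and 5 fell (median -0.04). TTLL1, a polyglutamylase, fell 1.58-fold (adjusted p = 0.00244) and HDAC6, a tubulin deacetylase, 1.37-fold from 54.8 ± 6.95 to 40.0 ± 0.971 CPM (adjusted p = 0.00361). TPGS2, a polyglutamylase subunit, fell 1.22-fold (adjusted p = 0.0180), and TTLL4, another polyglutamylase, rose 1.23-fold (adjusted p = 0.0152). The call of TTLL4 was lost without control 2, knockdown library 1 or knockdown library 3 (adjusted p = 0.0949, 0.0670 and 0.0565). That of TPGS2 was lost without control 3 or knockdown library 1 (adjusted p = 0.0739 and 0.0939). The list had 3 calls without control 2 and 2 without knockdown library 1. It had 2 rises and 3 falls with the gene-span offset, and 4 rises and 3 falls with the offset and a replicate block.

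Of 24 other microtubule-binding proteins tested 3 rose and 6 fell (median -0.04). MAP1A, a structural relative of MAP1B found on mature neuronal microtubules, rose 1.65-fold from 29.3 ± 4.47 to 48.3 ± 7.35 CPM (adjusted p = 0.00101). MAP7 fell 1.96-fold from 6.8 ± 0.760 to 3.33 ± 0.878 CPM (adjusted p = 0.00186), and CLIP2, a plus-end protein, 2.24-fold from 3.03 ± 0.437 to 1.40 ± 0.364 CPM (adjusted p = 0.00447). DCLK2, a kinase with doublecortin domains, fell 1.42-fold (adjusted p = 0.00460). With the gene-span offset 5 of this list rose and 5 fell, and DCLK2 was at -0.33 in place of -0.51 (adjusted p = 0.0365). Without control 2 the list had 4 calls. Of 10 other stathmins and severing proteins tested 0 rose and 1 fell (median -0.12). This was STMN1, at 742 ± 35.1 and 609 ± 79.6 CPM (1.22-fold, adjusted p = 0.0394). Its call was lost without control 1, control 2, control 3, knockdown library 1 or knockdown library 3 (adjusted p = 0.0580, 0.158, 0.0607, 0.172 and 0.143). Without knockdown library 2 the list had 1 rise and 1 fall, the rise being FIGNL1, a severing ATPase (adjusted p = 0.0101, and 0.0915 with all libraries), which the gene-span offset also called (adjusted p = 0.0210). FIGN, its paralog, passed without knockdown library 3, at -0.35 in place of -0.18 (adjusted p = 0.0242).

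Growth cone proteins and the membrane skeleton of axons gave falls and no rise without a gene-span offset. Of 14 growth cone genes tested 6 fell (median -0.16), and with the gene-span offset 1 rose and 5 fell, with NCAM1 at -0.34 in place of -0.61. BASP1 fell 1.82-fold from 59.3 ± 8.32 to 32.7 ± 4.72 CPM (adjusted p = 0.000243), NCAM1, a neural adhesion molecule, 1.53-fold (adjusted p = 0.000482), DPYSL3, a collapsin response mediator, 1.44-fold from 959 ± 59.1 to 667 ± 24.3 CPM (adjusted p = 0.000600), and DPYSL5, of the same family, 1.63-fold (adjusted p = 0.00618). Of 10 spectrin and ankyrin skeleton genes tested 6 fell (median -0.53). Neurofascin (NFASC), an adhesion molecule of the axon initial segment, fell 2.13-fold from 128 ± 30.5 to 60.7 ± 5.79 CPM (adjusted p = 0.000171), and adducin 3 (ADD3) 1.45-fold (adjusted p = 0.000569). Ankyrin G (ANK3), which anchors the initial segment, fell 1.47-fold (adjusted p = 0.000595) and NRCAM, a neurofascin relative, 1.59-fold (adjusted p = 0.00267). With the gene-span offset the list had 4 falls, and 3 with the offset and a replicate block, and ANK3 was at -0.16 in place of -0.55 (adjusted p = 0.188). NRCAM was at -0.40 in place of -0.67 with the offset (adjusted p = 0.0432), and its call was lost with the offset and block, at -0.39 (adjusted p = 0.0572). NFASC was at -0.89 in place of -1.09 with the offset, still called (adjusted p = 0.000338) but short of 2-fold.

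Kinases and phosphatases that act on tau and neurofilaments gave 3 rises and 3 falls of 21 tested (median -0.04), and 4 rises and 1 fall with the gene-span offset, with or without a replicate block. PPP2R2A and PPP2CA, subunits of the tau phosphatase PP2A, rose 1.35-fold and 1.29-fold (adjusted p = 0.00236 and 0.00515). TTBK2, a tau-tubulin kinase, fell 1.45-fold (adjusted p = 0.00615) and MARK4, a microtubule affinity kinase, 1.32-fold (adjusted p = 0.0107). The call of MARK4 was lost without control 3 or knockdown library 3 (adjusted p = 0.0614 and 0.0508) and with the gene-span offset, at -0.18 in place of -0.40 (adjusted p = 0.188), where TTBK2 was at -0.35 in place of -0.53.

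Among regulators of neuronal transcripts 3 of 20 rose and 6 fell (median -0.05). SRRM4, a neuronal splicing activator, fell 2.05-fold from 17.5 ± 2.37 to 8.50 ± 0.979 CPM (adjusted p = 0.000169), RBFOX2, a splicing regulator, 1.48-fold from 243 ± 21.2 to 164 ± 6.03 CPM (adjusted p = 0.000428) and MBNL2 1.57-fold (adjusted p = 0.00365). TARDBP, an RNA-binding protein known to protect the STMN2 transcript from a cryptic exon, rose 1.32-fold from 240.2 ± 22.8 to 317 ± 2.98 CPM (adjusted p = 0.00359). REST, the repressor of neuronal genes in other cells, named after its values were seen, was at 42.8 ± 1.5 and 43.8 ± 6.64 CPM (adjusted p = 0.872), with a sign that turned under upper-quartile scaling. ELAVL4 and RBFOX1 were at 0 in every library. The list had 5 calls without control 2, knockdown library 1 or knockdown library 3. With the gene-span offset 4 rose and 5 fell, and RBFOX2 was at -0.31 in place of -0.57. SRRM4 was then at -0.84 in place of -1.03, still called (adjusted p = 0.000579) but short of 2-fold.

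Neuronal genes outside the cytoskeleton gave 0 rises and 5 falls of 15 tested (median -0.36), and 4 falls with the gene-span offset. VAMP2, a synaptic vesicle SNARE, fell 1.74-fold from 25.4 ± 2.14 to 14.5 ± 1.51 CPM (adjusted p = 0.000234), and SYN2, a vesicle phosphoprotein, 1.58-fold from 284 ± 41.1 to 179 ± 9.73 CPM (adjusted p = 0.000453). SYT1, a calcium sensor of release, fell 1.49-fold (adjusted p = 0.000527) and ENO2, the neuronal enolase, 1.29-fold (adjusted p = 0.00526). With the gene-span offset SYT1 was at -0.21 in place of -0.58 (adjusted p = 0.0543).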

How the data were processed

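PolyA+ RNA was sequenced with a TruSeq stranded kit, per the labels. Per the submitters' processing notes, the authors worked on GRCh38.p13 with RSEM, STAR 2.7.9a and Trim Galore 0.6.4. No source used here states the annotation, the RSEM version or the strand setting of the counting. The deposited values are whole numbers, read as RSEM's expected counts rounded before deposit. The 44 pseudoautosomal copies were added to their X copies. Symbols, coordinates and exon lengths came from the gene name table and GENCODE release 29.

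The test was that of edgeR 4.0.16 in R 4.3.3, with filterByExpr, TMM, quasi-likelihood F test without covariates, 2-sided, Benjamini-Hochberg adjustment over 14673 genes. SE is the log2 change over the square root of F, and 95% intervals use the moderated degrees of freedom. The fit was tested on simulated data. It recovered 70 of 100 genes changed 1.5-fold and 88 of 100 changed 2-fold, and 13 of its 171 calls were unchanged genes. Only these genes were changed among 14673 simulated, whereas 4657 genes were called in the real data. These rates therefore check the fit and do not give the power or false-call share of the real comparison. Ratios were compared by exact permutation. The planned STMN2 to STMN1 ratio was not computed because STMN2 had 0 counts.

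All members were named, with up to 4 genes per list by smallest adjusted p and the 2 genes most like each member, of which 1 is not reported here. TUBB, STMN3, MARCKS, REST, the marker genes and the genes at 0 were added after their values were seen. The level of lncMB3 itself was not analysed here. The members and lists were chosen with earlier results of these data known. No replicate pair matched within counting noise, with a reduced chi-square from 2.80 to 16.8, so each library counted as 1 replicate. Figures were drawn with matplotlib 3.10.9.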

Additional observations from a re-analysis of the deposited data

How the results depend on the processing

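Scaling (RLE, upper-quartile), filters, DESeq2 1.42.0, limma-voom (limma 3.58.1), a gene-span offset and an adjusted p of 0.01 each left the 4 calls among the members at 1 rise and 3 falls. Over all tested genes upper-quartile scaling gave 1773 rises and 2803 falls in place of 2328 and 2329, and the gene-span offset 2907 and 1975. At an adjusted p of 0.01, 2459 genes and 32 list genes passed. Leaving out each library gave 2704 to 5114 genes, 4 to 5 members, 32 to 65 list genes and log2 ratio differences of 1.17 to 1.44 (NEFH to NEFL), 0.12 to 0.26 (NEFM to NEFL) and -0.63 to 0.20 (TUBB3 share). The TUBB3 change ran from -0.32 to 0.15, turning to 0.12 without control 2 and 0.15 without knockdown library 1, and that of REST from -0.084 to 0.16, and REST was at -0.032 with upper-quartile scaling. Same-numbered libraries correlated at 0.03, 0.10 and -0.03 in their deviations, and unlike-numbered ones at -0.078 to 0.045. Deviations from means of 3 libraries cannot settle whether same-numbered libraries shared a culture or batch. With a replicate block 4742 genes, 4 members and 56 list genes passed, the VIM call was lost (adjusted p = 0.0562), and the ratio differences were 1.27, 0.19 and -0.31. With block and gene-span offset together 4953 genes, 4 members and 57 list genes passed. Genes with under 100 counts in a library (TUBB3, MAP2, MAPT, DCX) are limited by depth.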
